A study of Sus scrofa with 48 samples.

Results

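The genes followed here encode the ubiquitin-conjugating enzymes (E2, gene names starting with UBE2) and the ubiquitin-specific proteases (USP), the largest family of deubiquitinases. Members were the non-control probes of the liver arrays whose gene name starts with UBE2 or with USP and a digit, apart from a few genes that the rule set aside, and each gene was read at its brightest probe. The rule took 58 genes with 115 probes out of 60305 probes on the array, and 57 genes with 109 probes were bright enough to be tested, out of 45236 tested probes. They were 27 E2 genes, 29 USP genes and UBE2CBP, which carries a UBE2 name but encodes a ubiquitin ligase that binds an E2. USP36 was not tested, because the signal of its only probe was well above background on only 3 of 48 arrays. This does not show that the gene is silent in liver.

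Ubiquitin is a small protein that is attached to other proteins in a relay. An E1 enzyme activates it, an E2 carries it as a thioester, and an E3 ligase directs the E2 to a target, while deubiquitinases such as the USP remove it again. The choice of E2 and of the linkage in the chain bears on whether the target is degraded by the proteasome, relocated or kept in a complex, and liver relies on this system for protein turnover, for degradation of misfolded proteins at the endoplasmic reticulum and for control of metabolic enzymes.

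Liver RNA of 48 castrated male Large White pigs was measured with 1 array per pig. The pigs came from 2 lines divergently selected for residual feed intake (RFI) over 8 generations, 24 from the low RFI line, which eats less than predicted for its growth, and 24 from the high RFI line. From 74 days of age, the feed of 12 pigs per line was rich in fat and fiber (high-fat diet) and that of the other 12 was poor in both (low-fat diet), and all were killed at about 19 weeks of age, 2 h after a meal. There was no unselected line and no pig before the diets, so every difference below is between lines or between diets.

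Arrays lay on 6 slides, each with 2 pigs of every line and diet group, and were scanned on 2 days with 24 arrays per day. Median intensities per array lay between 53.04 and 126 scanner units, and 65.8% to 77.2% of probes were well above background. Of 8 hepatocyte marker genes, 7 were tested, and they were well above background on all 48 arrays. In bulk liver, fewer cells of a type and less RNA per cell cannot be told apart. Values below are log2 intensities from which the median of the array over tested probes was subtracted, so that 0 is the median tested probe, and they are compared between pigs and never between genes. A member was called differentially expressed at P under 0.01 and a fold-change (FC) over 1.1 in limma, with P-BH as the value adjusted over all 45236 probes.

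Array probes are 60 bases long, and their sequence decides which transcripts a value stands for. The probe of USP2 is shown because USP2 is the member with the smallest P between lines, and that of USP24 as an example of a member called between diets. Each has at least 1 reading frame without a stop codon. The brightest probes of UBE2D2 and UBE2D3 are shown because they are almost the same oligonucleotide. The 56 bases that they share are in capitals.
USP2: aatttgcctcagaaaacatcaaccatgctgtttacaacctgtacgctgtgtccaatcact
USP24: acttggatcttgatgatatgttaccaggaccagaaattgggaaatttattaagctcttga
UBE2D2: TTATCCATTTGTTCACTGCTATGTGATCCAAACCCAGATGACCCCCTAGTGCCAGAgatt
UBE2D3: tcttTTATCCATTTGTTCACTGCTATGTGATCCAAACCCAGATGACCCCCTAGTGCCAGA

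These UBE2D probes carry the same transcript accession in the scanner output, and the reference table gives that accession to UBE2D3 alone. UBE2D2 and UBE2D3 encode near-identical E2 that work with a broad range of E3, and their values here should be read as 1 measurement. Their line log2 FC were 0.00 and 0.02, and their diet log2 FC were -0.01 and 0.00. Over all members, with probes compared as printed, 6 pairs of probes shared a run of 20 bases or more, and 4 of these pairs belonged to a single gene (UBE2Q1, UBE2T, USP8 and USP30). The reverse complement of a further UBE2Q1 probe overlaps both UBE2Q1 probes of that pair, so this gene has probes of opposite strands. For the other members, the strand of the probes relative to the transcript was not checked. Of the 115 member probes, 13 had an accession found in the reference table, and 10 of these had the same symbol there. The other probes are named as the array names them.

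Between lines, 4 of 57 members were called, beside 6.91% of all tested probes and 6.78% of the 9229 genes that were read the same way. In the low RFI line, USP2 was under-expressed (FC = 0.738), and UBE2CBP (FC = 1.21), USP30 (FC = 1.14) and UBE2E2 (FC = 1.13) were over-expressed, beside 3.49% of tested probes called lower and 3.42% called higher. The share of members called, 7.02%, lay near that background. USP2 was the only member with a P-BH under 5%, a level reached by 3.93% of tested probes.

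USP2 encodes a protease whose transcript follows the daily clock in liver and which acts on cyclin D1 and on MDM2, the ligase of p53. USP2 values spanned 1.56 to 3.20 around a median of 2.48 in the low RFI line, and 1.94 to 3.63 around 2.89 in the high RFI line. The lines overlapped, but 20 of the 24 low RFI pigs lay below the high RFI median. The log2 FC was -0.44 with an SE of 0.13 (limma, P = 0.0012, P-BH = 0.036). It was -0.46 with the high-fat diet and -0.42 with the low-fat diet, and the interaction of line and diet was -0.04 (P = 0.89). USP2 was also among the 5 members that varied most within groups, with an SD of 0.45, beside a median SD of 0.21 over members. Among pigs scanned on the first day the log2 FC was -0.62 (P = 0.0017), and among those of the second day it was -0.26 (P = 0.16).

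UBE2CBP, the E3 that binds UBE2C, spanned -1.11 to 0.05 around a median of -0.47 in the low RFI line, and -1.67 to -0.13 around -0.77 in the high RFI line. The log2 FC came to 0.28 with an SE of 0.09 (limma, P = 0.0034, P-BH = 0.072), and 18 of the 24 low RFI pigs exceeded the high RFI median. With the low-fat diet the lines differed by 0.44 (SE 0.13), and with the high-fat diet by 0.12 (SE 0.13). These differences were not shown to be unequal, since the interaction was -0.32 (SE 0.18, P = 0.082). With the high-fat diet the medians were -0.71 in the low RFI line and -0.69 in the high RFI line, whose lowest value was -1.67. By scan day the line log2 FC was 0.15 (P = 0.22) and 0.41 (P = 0.0048).

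UBE2E2, an E2 of the UBE2E group that attaches single ubiquitins and has a long amino-terminal extension, spanned 1.62 to 2.35 around a median of 1.91 in the low RFI line, and 1.41 to 2.19 around 1.80 in the high RFI line. The log2 FC was 0.18 with an SE of 0.06 (limma, P = 0.0091, P-BH = 0.13), and 20 of the 24 low RFI pigs exceeded the high RFI median. For its relatives, the line log2 FC was -0.09 (UBE2E1) and -0.01 (UBE2E3), neither of them called. Whether UBE2E2 differed from its relatives was not tested. By scan day, the UBE2E2 log2 FC was 0.14 (P = 0.10) and 0.21 (P = 0.048).

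**Figure D1:**
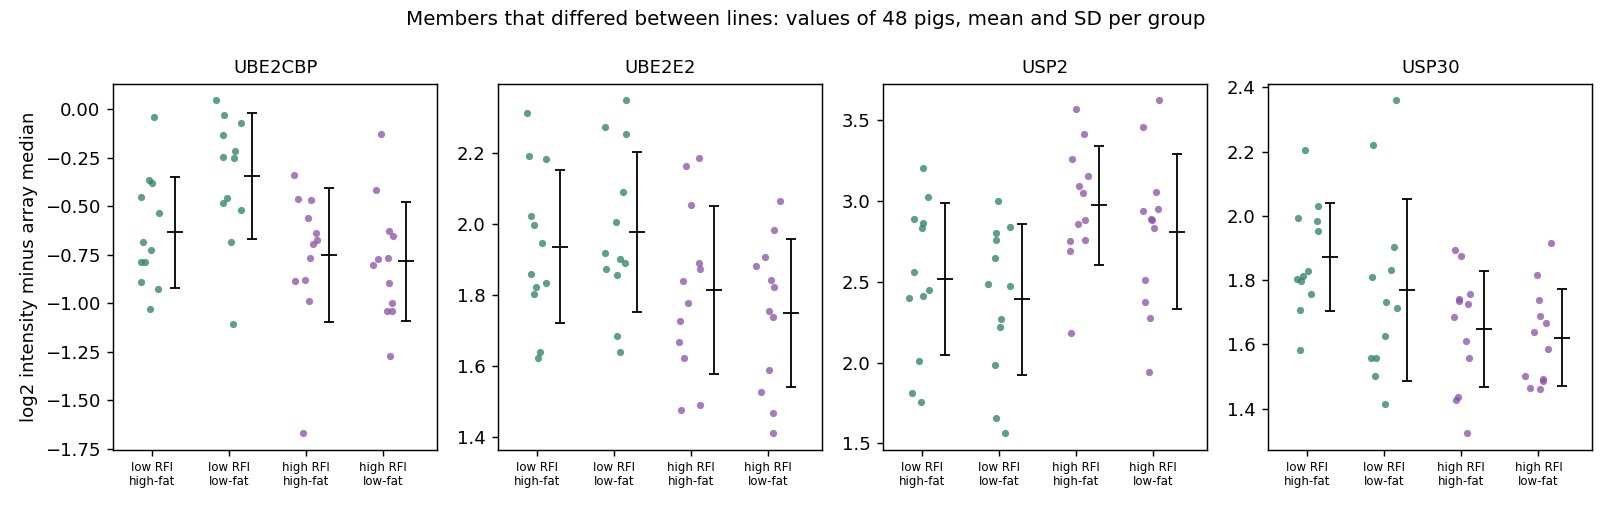
Values of the 4 members called between lines, as log2 intensity minus the median of the array, for the 12 pigs of each line and diet group, with the mean and SD of each group as a bar. USP2 sits lower in the low RFI line on both diets, and USP30 and UBE2E2 sit higher on both. UBE2CBP sits higher with the low-fat diet. With the high-fat diet its medians are -0.71 in the low and -0.69 in the high RFI line. The lines overlap in every panel.

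USP30, which sits in the outer mitochondrial membrane and removes the ubiquitin that marks mitochondria for degradation, was read by 2 probes with different results. At its brightest probe, USP30 values spanned 1.42 to 2.36 around a median of 1.81 in the low RFI line, and 1.32 to 1.92 around 1.65 in the high RFI line. The lines overlapped, and 18 of the 24 low RFI pigs exceeded the high RFI median. The log2 FC was 0.19 with an SE of 0.06 (limma, P = 0.0030, P-BH = 0.065). The second probe gave 0.01 with an SE of 0.06 (P = 0.86), although it carries the same transcript accession and the values of both probes were correlated within groups (r = 0.72 over 48 pigs, given as a description). The probes overlap by the following 27 bases, which are the last bases of the second probe and the first of the brightest one.
USP30: GTGTGATCCTCTGAGCTTTCAGCATAG

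The line effects read by these probes differed by 0.18 on the log2 scale (2-sided permutation test of line within diets with 100000 resamples, P = 0.00012). That test was added after the values were seen. By scan day the brightest probe gave a line log2 FC of 0.04 (P = 0.54) and 0.33 (P = 0.0019). With the mean of both probes in place of the brightest one, the log2 FC was 0.10 (P = 0.075), and USP30 was no longer called.

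By role, the 27 E2 leaned to lower values in the low RFI line and the 29 USP to higher ones, by small amounts. A line log2 FC above 0 was found for 8 of 27 E2 and for 20 of 29 USP, beside 52.5% of all tested probes. The 8 E2 include both UBE2D2 and UBE2D3, whose probes are almost the same. They also include UBE2V2 and UBE2Z, which were well above background on 40 and 14 arrays. The median log2 FC was -0.03 for the E2 and 0.02 for the USP, beside 0.01 for all tested probes. These medians kept their signs with every scaling. The lean was not seen on both scan days: among pigs of the first day 14 of 29 USP lay above the median of all tested probes, and among those of the second day 12 of 27 E2 did. All 3 E2 of the endoplasmic reticulum (UBE2G1, UBE2G2 and UBE2J1, which serve the disposal of misfolded proteins) were below 0, without passing the test. The same held for UBE2M (-0.06, SE 0.04) and UBE2F (-0.04, SE 0.07), which carry NEDD8 in place of ubiquitin.

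Other members with large line differences did not pass the cut-offs. UBE2Q2, an E2 with a long amino-terminal extension, had a log2 FC of -0.21 (SE 0.09, P = 0.021). USP45, a protease linked to DNA repair, had -0.16 (SE 0.07, P = 0.022). UBE2QL1 and UBE2G2 had -0.12 (SE 0.18) and -0.11 (SE 0.09), while USP1 and USP39 had 0.11 (SE 0.06) and 0.11 (SE 0.05). The UBE2G2 value depends on a single pig described below.

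**Figure D2:**
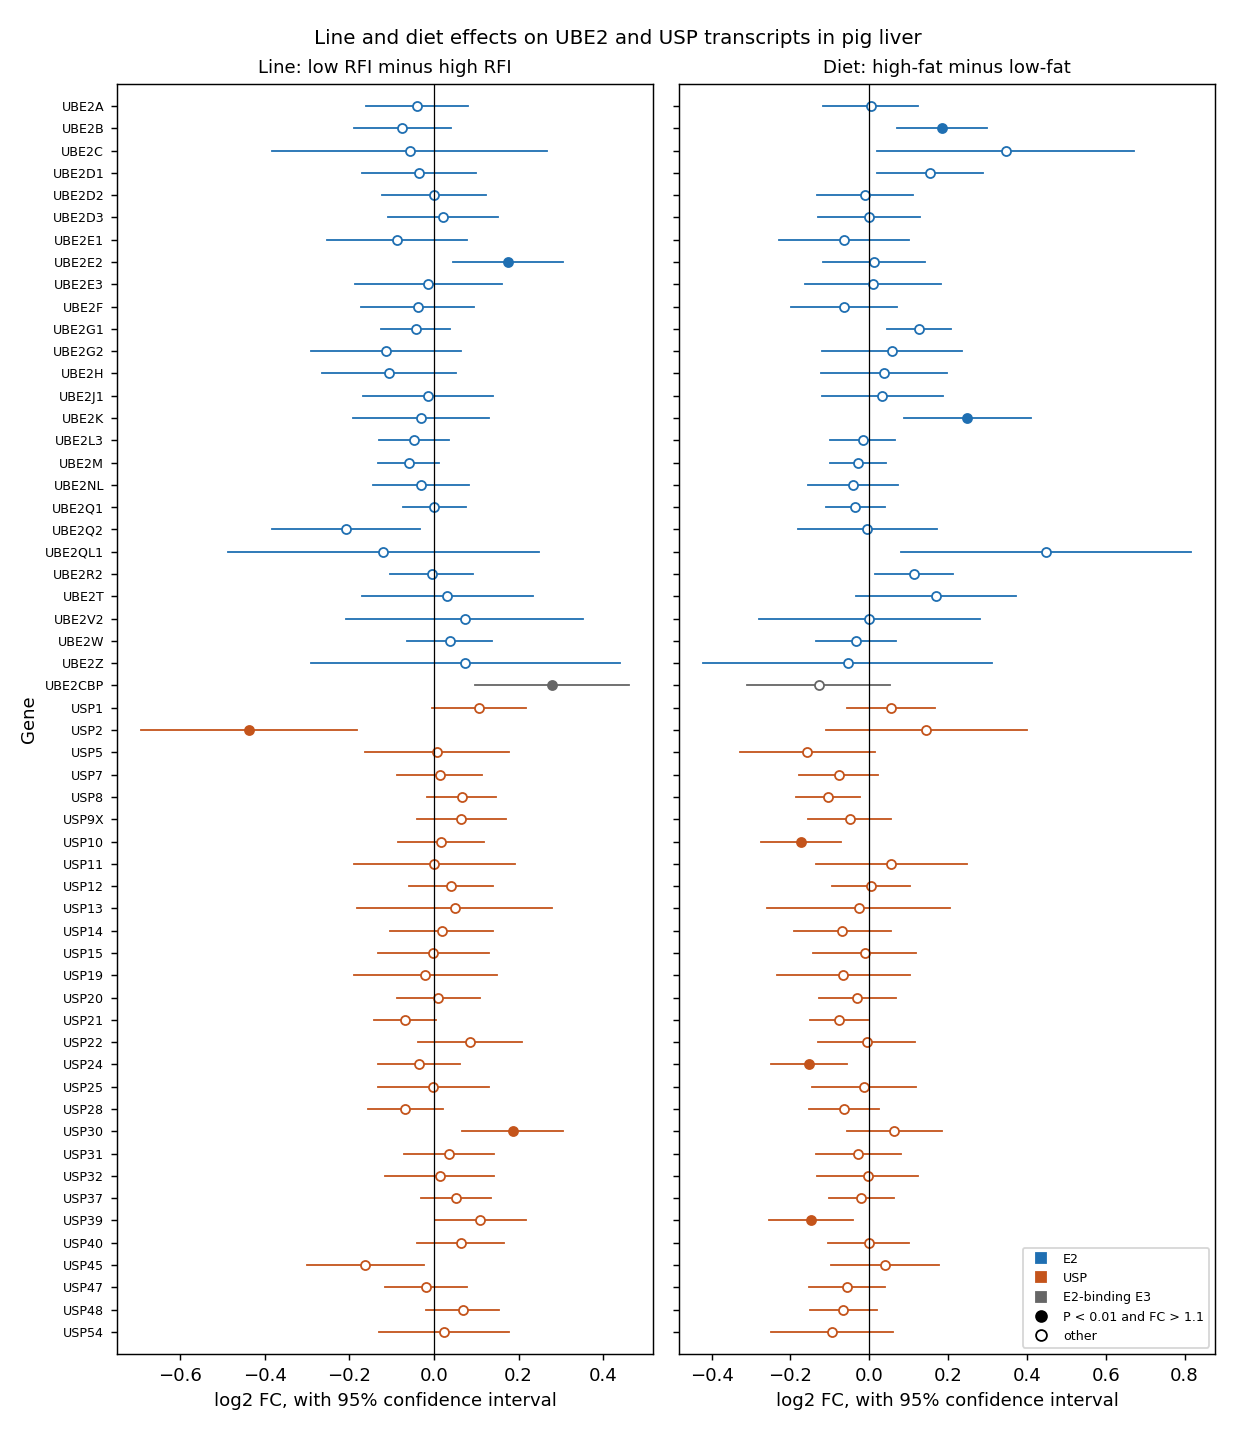
Log2 FC between lines (left) and between diets (right) for 56 of the 57 tested members with 95% confidence intervals, E2 in blue, USP in orange and UBE2CBP in grey, with filled circles for called members. USP2 at -0.44 lies farthest from 0 between lines, and UBE2QL1 at 0.45, which is not called, between diets.

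Between diets, 5 of 57 members were called, beside 4.61% of all tested probes and 4.29% of the 9229 genes. UBE2K and UBE2B, both E2, were over-expressed with the high-fat diet (FC of 1.19 and 1.14). The USP genes USP10, USP24 and USP39 were under-expressed with that diet (FC of 0.887, 0.900 and 0.903), beside 2.07% of tested probes called higher and 2.54% called lower. The share of members called was 8.77%, and 0 members had a P-BH under 5% in limma, a level reached by 0.455% of tested probes, while 12 members had an unadjusted P under 0.05 in limma and 12 in the ANOVA without moderated variances. Over all tested probes 14.4% had an unadjusted P under 0.05 for diet in limma.

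UBE2K builds by itself the ubiquitin chains that send proteins to the proteasome. UBE2K values spanned 1.30 to 2.38 around a median of 1.82 in pigs fed the high-fat diet, and 1.09 to 1.997 around 1.60 in pigs fed the low-fat diet. The log2 FC was 0.25 with an SE of 0.08 (limma, P = 0.0031, P-BH = 0.13), and 18 of 24 pigs fed the high-fat diet were above the median of the other diet. It was 0.31 in the low RFI line and 0.19 in the high RFI line, with an interaction of 0.12 (P = 0.46).

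UBE2B, one of the mammalian counterparts of yeast Rad6, ubiquitinates histone H2B and the sliding clamp PCNA. Its values spanned 1.46 to 2.29 around a median of 1.81 in pigs fed the high-fat diet, and 1.23 to 2.04 around 1.66 in the others. The log2 FC was 0.18 with an SE of 0.06 (limma, P = 0.0023, P-BH = 0.12), and 20 of 24 pigs fed the high-fat diet exceeded the median of the other group. By scan day it was 0.19 (P = 0.014) and 0.18 (P = 0.016). UBE2A, the paralog of UBE2B, had a diet log2 FC of 0.00 (SE 0.06), and the difference between them was not tested.

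USP10 removes ubiquitin from p53 in the cytoplasm and forms part of stress granule control. High-fat values spanned 3.17 to 3.84 around a median of 3.57, and low-fat values 3.38 to 4.03 around 3.74. The log2 FC was -0.17 with an SE of 0.05 (limma, P = 0.0013, P-BH = 0.099), and 21 of 24 pigs fed the high-fat diet lay below the median of the low-fat diet. A second tested probe of USP10 gave -0.14 (SE 0.06, P = 0.023). By scan day the brightest probe gave -0.11 (P = 0.16) and -0.24 (P = 0.0041).

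USP24, a large protease of the USP family, spanned 3.60 to 4.31 around a median of 3.89 in high-fat pigs, and 3.66 to 4.43 around 4.04 in low-fat pigs. Its log2 FC was -0.15 with an SE of 0.05 (limma, P = 0.0028, P-BH = 0.13), and the second USP24 probe gave -0.13 (SE 0.06, P = 0.044). USP39, a spliceosome protein of the family that has lost protease activity, spanned 3.24 to 4.11 around a median of 3.68 in high-fat pigs, and 3.39 to 4.16 around 3.84 in low-fat pigs. Its log2 FC was -0.15 with an SE of 0.05 (limma, P = 0.0083, P-BH = 0.19). Groups overlapped for both genes, with 19 and 20 of 24 pigs fed the high-fat diet below the median of the other diet. By scan day the log2 FC was -0.12 (P = 0.059) and -0.18 (P = 0.024) for USP24, and -0.14 (P = 0.051) and -0.15 (P = 0.070) for USP39.

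**Figure D3:**
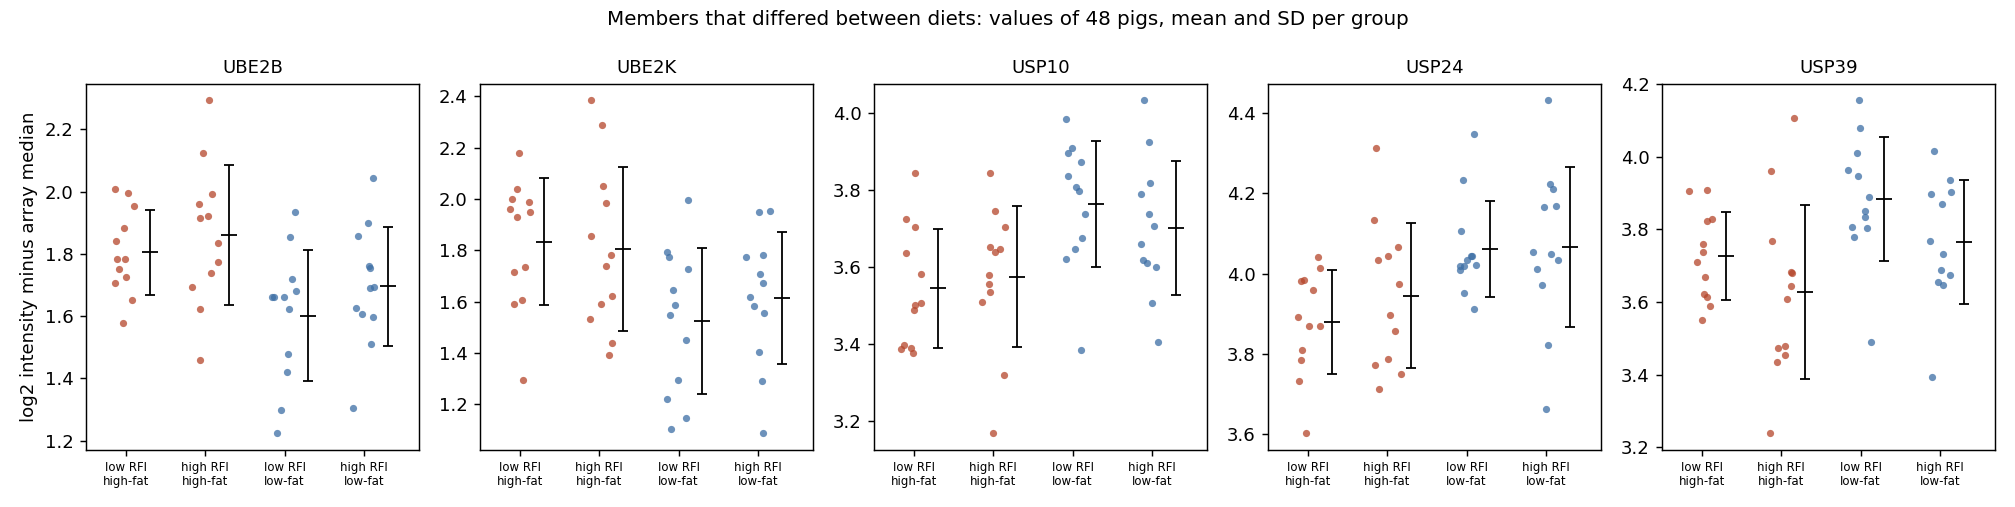
Values of the 5 members called between diets, as log2 intensity minus the median of the array, for the 12 pigs of each line and diet group, with the mean and SD of each group as a bar. UBE2B and UBE2K sit higher and USP10, USP24 and USP39 lower with the high-fat diet in both lines, and the diets overlap in every panel.

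UBE2G1, an E2 of the endoplasmic reticulum pathway, lay just outside the cut-offs, with a diet log2 FC of 0.13 (SE 0.04, P = 0.0029) and an FC of 1.09. USP8, which spares receptors at endosomes from degradation, had -0.10 (SE 0.04, P = 0.013). UBE2D1 and UBE2R2, a broad E2 and a partner of cullin ligases, had 0.15 (SE 0.07, P = 0.026) and 0.11 (SE 0.05, P = 0.025). USP5, which disassembles unanchored ubiquitin chains, had -0.16 (SE 0.09, P = 0.070). UBE2CBP, called between lines, had a diet log2 FC of -0.13 (SE 0.09, P = 0.16).

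The diet log2 FC was above 0 for 15 of 27 E2 and for 6 of 29 USP, beside 44.8% of all tested probes. UBE2D2 and UBE2D3, whose probes are almost the same, are counted apart here as well. The median was 0.00 for the E2 and -0.03 for the USP, beside -0.01 for all tested probes. Between 5 and 10 USP were above 0 over the settings tried. Set against the median of all tested probes, 11 of 29 USP lay above it, but 15 of 29 did so with the normexp background correction and among pigs of the second scan day. The E2 count ranged from 12 to 22 above 0, and the E2 median fell to -0.04 among pigs of the second scan day. With the normexp background correction USP10, USP24 and USP39 were no longer called, with a diet log2 FC of -0.14 (P = 0.013), -0.13 (P = 0.0081, below the FC cut-off) and -0.11 (P = 0.057), and the median of all tested probes was then -0.03.

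UBE2C and UBE2T belong to dividing cells: UBE2C starts ubiquitin chains for the anaphase-promoting complex, and UBE2T is the E2 of the Fanconi anemia pathway. UBE2C spanned -0.44 to 1.88 around a median of 0.38 in high-fat pigs, and -0.82 to 1.49 around -0.04 in low-fat pigs, a log2 FC of 0.35 (SE 0.16, P = 0.038) that was not called. By scan day it was 0.04 (P = 0.87) and 0.66 (P = 0.0083). UBE2T had 0.17 (SE 0.10, P = 0.099), with 0.16 at a second probe that shares 58 of its 60 bases. Among 9 tested markers of dividing cells, 8 had a diet log2 FC above 0, the median was 0.28 and 1 was called (CENPF, 0.69, SE 0.21, P = 0.0016). The summed level of these markers, in which bright markers weigh most, was 4.22 to 5.39 around a median of 4.73 in high-fat pigs. In low-fat pigs it was 4.12 to 5.24 around 4.79. The means were 4.77 (SD 0.29) with the high-fat and 4.76 (SD 0.26) with the low-fat diet. The part of dividing cells in the UBE2C and UBE2T values was not tested.

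Of the other cell types, 1 of 8 T and NK cell markers was called between diets (CD247, higher with the high-fat diet), and between lines 1 of 8 T and NK cell markers (CD247, lower in the low RFI line), 1 of 4 cholangiocyte markers (KRT7, lower) and 1 of 7 hepatocyte markers (APOA1, higher). In the low and the high RFI line, the summed level ranged from 3.68 to 4.95 and from 3.94 to 4.99 for T and NK cells, from 0.90 to 2.51 and from 0.68 to 2.65 for cholangiocytes, and from 12.8 to 13.3 and from 12.6 to 13.3 for hepatocytes. For T and NK cells it was 4.03 to 4.99 in high-fat pigs and 3.68 to 4.87 in low-fat pigs. None of the tested markers of macrophages, B cells, fibroblasts, endothelial cells or erythroid cells was called for line or diet, but several lists leaned one way. In the low RFI line, 6 of 7 macrophage markers were below 0 (median log2 FC -0.18, 3 with an unadjusted P under 0.05) and all 3 erythroid markers above 0 (median 0.38, 1 such marker), with summed levels in the low and the high RFI line of 7.20 to 8.33 and 7.47 to 8.44 for macrophages, and of 3.62 to 5.93 and 2.40 to 6.04 for erythroid cells. With the high-fat diet, all 3 erythroid markers (median -0.56, 2 with an unadjusted P under 0.05) and all 7 hepatocyte markers (median -0.09, 3 such markers) were below 0, while all 4 cholangiocyte markers (median 0.26, 2 such markers) and all 5 fibroblast markers (median 0.19, 2 such markers) were above 0. Summed levels in high-fat and low-fat pigs were 2.40 to 6.04 and 2.96 to 5.93 for erythroid cells, 12.6 to 13.3 and 12.96 to 13.3 for hepatocytes, 0.68 to 2.65 and 0.75 to 1.98 for cholangiocytes, and 5.46 to 6.43 and 5.41 to 6.07 for fibroblasts. Further lists leaned as well. In the low RFI line, all 5 endothelial markers (median 0.12) and 6 of 7 hepatocyte markers (0.04) were above 0. All 3 B cell markers (-0.18) and 6 of 8 T and NK cell markers (-0.13) were below 0. With the high-fat diet, 6 of 7 macrophage markers (0.12) and 6 of 8 T and NK cell markers (0.05) were above 0, and all 3 B cell markers (-0.08) below 0. The part of these cell types in the values of the members was not tested.

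For the interaction of line and diet, 0 of 57 members were called in limma, beside 0.376% of tested probes, and 0 members had an unadjusted P under 0.05 in limma or in the ANOVA, a level reached by 2.37% of tested probes in limma. The smallest P was that of UBE2G2, with an interaction of 0.34 (SE 0.18, P = 0.058). In UBE2G2 the line log2 FC was 0.06 (SE 0.12) with the high-fat diet and -0.29 (SE 0.12) with the low-fat diet. A single pig of the low RFI line fed the high-fat diet, replicate 7, had a value of -0.59, while the other 11 pigs of its group lay between -2.38 and -1.62. Without that pig the interaction was 0.22 (SE 0.14, P = 0.11), the line log2 FC with the high-fat diet turned to -0.06 (SE 0.10), and the line log2 FC over both diets was -0.17 (SE 0.07, P = 0.015), still not called. That pig was chosen after its value was seen.

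Variation between pigs of a group was largest in UBE2QL1, UBE2Z, UBE2C, UBE2V2 and USP2, beside a median SD within groups of 0.21 over members. UBE2QL1 had the largest SD within groups (0.65), with values of 0.18 to 2.40 in high-fat pigs and of -0.50 to 1.85 in low-fat pigs, and its diet log2 FC of 0.45 (SE 0.18, P = 0.018) was not called. UBE2Z, which takes ubiquitin from the E1 UBA6, had an SD of 0.65 and was well above background on 14 arrays. UBE2C had an SD of 0.57, and UBE2V2, an inactive E2 variant that pairs with an active E2, had 0.49 and was well above background on 40 arrays. The strand that the UBE2Z and UBE2V2 probes read was not checked, so their SD should not be taken as variation of the mRNA between pigs.

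Among the 24 members with more than 1 tested probe, 0 had more than 1 called probe for line or for diet, and in 10 the line log2 FC of the probes had both signs, USP13 (-0.22 and 0.05) and UBE2L3 (-0.10 to 0.06) among them. Line effects of the probes of a gene spanned 0.00 (USP1) to 0.27 (USP13) on the log2 scale. The mean correlation between probes within groups ranged from -0.06 for USP9X to 0.97 for UBE2T, given as a description over 48 pigs. The second probe was well above background on only 13 arrays in USP13 and on only 22 arrays in USP9X. Probes of a gene can lie on opposite strands, as in UBE2Q1, and the strand was not checked for USP9X, USP13 or UBE2L3.

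**Figure D4:**
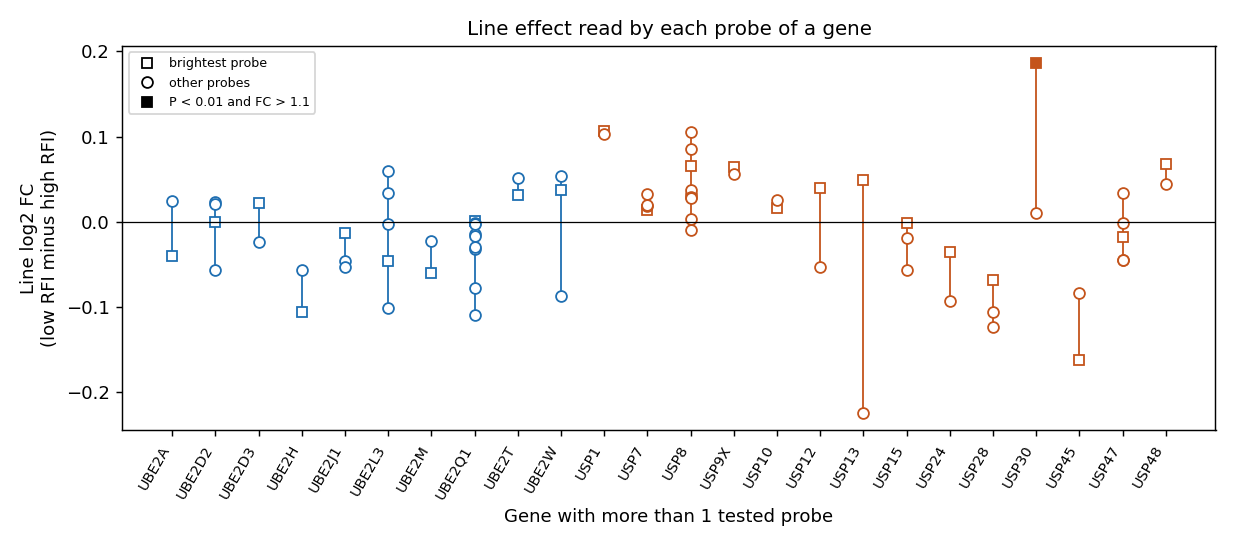
Line log2 FC of each tested probe in the 24 members with more than 1 tested probe, with a square for the brightest probe of a gene, circles for the others and a filled symbol for a called probe. The USP30 probes lie at 0.19 and 0.01, while the USP1 probes lie on top of each other.

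Known partners and paralogs were compared by the correlation of their deviations from the group means over 48 pigs, in 9 pairs that had tested probes, of which 8 are given (permutation tests within groups with 100000 resamples, adjusted over the 9 pairs). USP1 and WDR48, the subunit that activates this protease of DNA repair, were positively correlated (r = 0.62, P = 2e-05, adjusted P = 9e-05, rho = 0.54, P = 2e-04, adjusted P = 9e-04). Without the 2 pigs farthest from the median r was 0.56, and by scan day it was 0.76 and 0.38, the latter without passing the test (adjusted P = 0.14). With the mean of all tested probes r was lower, at 0.41 (adjusted P = 0.01, rho = 0.39). USP14 and UCHL5, both deubiquitinases bound to the proteasome, had r = 0.46 (P = 0.0025, adjusted P = 0.0056, rho = 0.47, P = 0.0014, adjusted P = 0.0032), with 0.44 without 2 pigs and, by scan day, 0.53 (adjusted P = 0.034) and 0.49 (adjusted P = 0.068).

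USP25 and USP28 are paralogs, and they were negatively correlated (r = -0.51, P = 0.00058, adjusted P = 0.0017, rho = -0.51, P = 0.00057, adjusted P = 0.0017). Without the 2 farthest pigs r was -0.44, and by scan day it was -0.47 (adjusted P = 0.084) and -0.53 (adjusted P = 0.049). It was -0.47 with the mean of all tested probes (adjusted P = 0.0025). The 3 tested USP28 probes had a mean r of only 0.03 with each other, so the pair depends on what the USP28 probes read. UBE2M and UBE2F, both E2 of NEDD8, had r = 0.38 (P = 0.0048, adjusted P = 0.0086, rho = 0.34, P = 0.023, adjusted P = 0.041). That relation did not hold without the 2 farthest pigs (r = 0.26, adjusted P = 0.099), with 75th percentile centring (r = 0.23, adjusted P = 0.12) or with quantile normalization (r = 0.10, adjusted P = 0.60). It was 0.58 with the mean of all tested probes, and 0.11 and 0.50 by scan day. UBE2D2 and UBE2D3 had r = 0.98 and rho = 0.95 (P = 1e-05, the smallest these permutations can give, adjusted P = 9e-05), and their probes share 56 of 60 bases. Of the remaining pairs given, none passed the test with the processing used above. They were UBE2A with UBE2B (r = -0.25, P = 0.11, adjusted P = 0.16), USP22 with ATXN7L3 (r = 0.15, P = 0.335, adjusted P = 0.335) and USP8 with STAMBP (r = 0.21, P = 0.16, adjusted P = 0.20). Their rho were -0.25 (P = 0.10, adjusted P = 0.13), 0.10 (P = 0.49, adjusted P = 0.55) and 0.25 (P = 0.088, adjusted P = 0.13) in the same order. Without the 2 farthest pigs their r were -0.27, 0.04 and 0.33, and USP8 with STAMBP then passed the test (adjusted P = 0.047). That pair also passed with the normexp background correction (r = 0.40, adjusted P = 0.012) and with median intensities (r = 0.34, adjusted P = 0.033). UBE2A with UBE2B passed with 75th percentile centring (r = -0.36, adjusted P = 0.035). By rho alone, USP22 with ATXN7L3 passed with normexp, with the opposite sign (rho = -0.36, adjusted P = 0.023, r = -0.22, adjusted P = 0.16). So did UBE2A with UBE2B with quantile normalization (rho = -0.34, adjusted P = 0.047) and USP8 with STAMBP on the second scan day (rho = 0.51, adjusted P = 0.034).

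**Figure D5:**
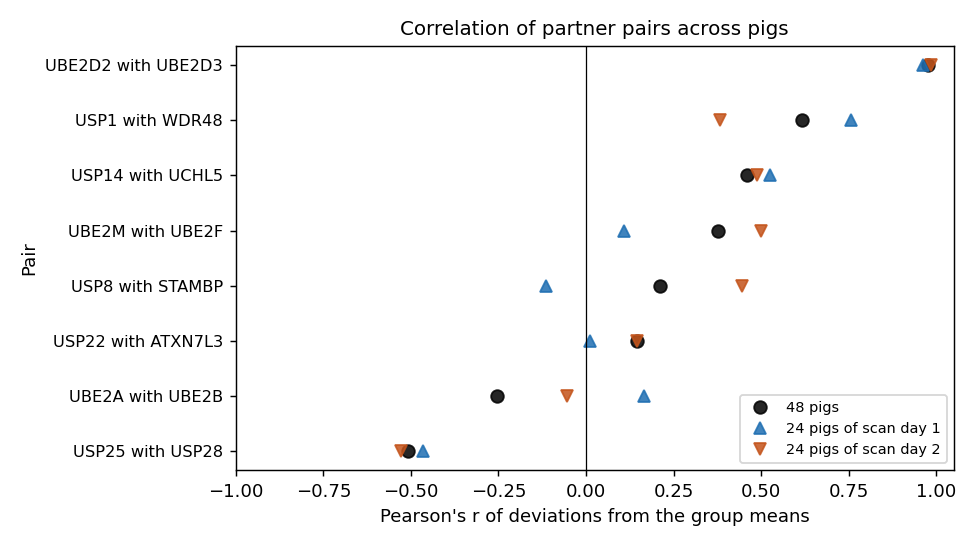
Pearson's r of the deviations from the group means in 8 pairs of partners or paralogs, over 48 pigs and over the 24 pigs of each scan day. USP14 with UCHL5 and USP25 with USP28 keep similar values on both days, and the day values of USP1 with WDR48 lie apart, at 0.76 and 0.38.

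Elsewhere in the pathway, 66 of 78 listed genes were tested. Between lines 6 were called, 1 higher and 5 lower in the low RFI line, and between diets 3 were called, beside the same background. The HECT ligase WWP1 had a line log2 FC of 0.47 (SE 0.08, limma, P = 3.6e-07, P-BH = 0.00012). The 5 lower genes were STAM2 (-0.28), an endosomal partner of USP8, the HECT ligase UBE3B (-0.20), ATXN7 (-0.18, P-BH = 0.045), which anchors USP22 to the SAGA complex, the cullin RING subunit RNF7 (-0.15) and BRCC3 (-0.14), a protease for another chain type. USP8 and USP22 themselves had line log2 FC of 0.07 (SE 0.04) and 0.09 (SE 0.06), neither called. Between diets SMURF2 (0.27) and JOSD1 (0.20) were higher and UBE3B (-0.25) lower with the high-fat diet. None of the 4 ubiquitin genes and none of the 6 tested E1 genes was called for line or diet, and an unadjusted P under 0.05 in limma was found for 0 of them between lines and for 2 E1 between diets.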

How the data were processed

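The authors deposited the scanner output of each array (Agilent Feature Extraction, single dye), in which the intensity of a spot had its background subtracted, without normalization between arrays. They also deposited a table of log2 values, centred per sample in R 2.10.0 per the labels, which was used as an alternative. Here 483 outlier spots were set to missing, log2 intensities were centred on the array median over tested probes (those that at least 12 arrays read well above background), and limma 3.58.1 in R 4.3.3 was fitted with line, diet and their interaction, in place of the ANOVA of the study's methods. The steps were tested on simulated data. The values of 1 member are not reported here, although it was counted with the others. Groups came from the sample titles. Replicate numbers pair no pigs. The number of arrays limits the precision. Correlations were computed in Python 3.11.15. Members, lists and tests were chosen with earlier results of these data known. Named members were all called ones, the 5 highest and 5 lowest log2 FC per effect, the 5 largest SD within groups and all members of partner pairs, while UBE2G1, UBE2D1, UBE2R2, UBE2E1, UBE2E3, UBE2J1 and USP8's diet value were named after their values were seen, as were the marker genes. Alternatives were an ANOVA, other centring, quantile normalization, normexp (offset 50), median intensity, filters, outliers kept, slide or scan day as a block, single days, a model without interaction, probe means and P-BH.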

Additional observations from a re-analysis of the deposited data

How the results depend on the processing

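The alternatives kept the counts of called members close to the values given above, with the following exceptions. The line count of 4 became 1 (USP2) with the first scan day alone and 1 with P-BH in place of P and FC. It was 3 with the second scan day alone (UBE2CBP, USP30 and UBE2Q2), without USP2 and UBE2E2. The diet count of 5 became 3 with the normexp correction (UBE2B, UBE2K and UBE2R2), 1 with the first scan day, 2 with the second and 0 with P-BH. The interaction count was 0 in every setting. The count of 5 correlated pairs became 3 on either scan day alone, each time with UBE2D2 and UBE2D3, whose probes are almost the same. A single day leaves 24 of 48 pigs, so its test rests on fewer samples. Signs reversed for members and pairs that were not called: the UBE2QL1 line log2 FC was 0.0153 and the UBE2CBP diet log2 FC was 0.0181 on the first scan day, r of UBE2A with UBE2B was 0.17 on that day and 0.16 with slide means removed, r of USP8 with STAMBP was -0.12 on that day, and r of USP22 with ATXN7L3 was -0.22 with normexp. For USP22 with ATXN7L3, rho with normexp was -0.36 and passed the permutation test (adjusted P = 0.023). The line log2 FC of UBE2G2 with the high-fat diet was -0.0609 without the pig named above, an alternative chosen after seeing the data. The cause was not tested. Of the values for single members and pairs under alternatives, 327 kept direction and call, 28 lost the call, 6 gained it and 7 reversed. No paired analysis was possible because the numbers in the labels do not pair pigs. UBE2Z, UBE2V2 and USP11 were not above background on every array, which limits their precision. Strand was not checked for their probes either, so these values may not stand for the mRNA of the gene.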

Other observations

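Over the 1596 pairs of members, r of the deviations from group means had a median of 0.03, with 79 pairs over 0.5 and 19 under -0.5. Pairs of E2 had a median of 0.18 (351 pairs), pairs of USP 0.02 (406 pairs) and pairs of an E2 with a USP -0.02 (783 pairs). These are descriptions over 48 pigs that share arrays, slides and centring. Apart from UBE2D2 with UBE2D3, the highest values within the E2 were those of UBE2D2 and UBE2D3 with UBE2NL (0.83 and 0.81), which rest on almost the same UBE2D probe. UBE2J1 with UBE2Q1 (0.81) and UBE2C with UBE2T (0.77) came next. The lowest value was that of UBE2E3 with USP15 (-0.73), and UBE2K with USP7 had -0.62. These pairs were chosen by their values.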
